A study of Mus musculus with 18 samples.

Results

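The genes described here are 9 interferon-stimulated genes: Isg15, Ifit1, Ifit3, Ifitm3, Irf1, Irf7, Ifi47, Irgm1 and Gbp2. They were chosen by name, and every probe set whose only gene symbol in the platform annotation was one of them was taken, which gave 10 probe sets for the 9 genes, out of 12422 probe sets and 8251 genes with a single symbol. Irf7 had 2 probe sets, called the dimmer (mean signal 72.2) and the brighter (150.1) below, and the other genes 1 each. Signal was read in kidney RNA of 18 mice of strain C57, 1 Affymetrix array per mouse. The groups were 6 control and 6 Aprt KO mice of 7 days, and 3 control and 3 Aprt KO mice of 1 month. The series text gives the genotypes as Aprt+/+ for controls and Aprt-/- for KO mice, and how the Aprt allele was made is not given in the sources used here. Aprt encodes adenine phosphoribosyltransferase, which recycles adenine, and in its absence adenine is oxidised to a product that crystallises in the kidney. Every KO mouse was paired with a same-sex control from its litter, and a pair shares 1 number below, so that 7-day control 3 and 7-day Aprt KO 3 are littermates.

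Interferons are cytokines that act through cell surface receptors and JAK kinases on STAT transcription factors. Type I interferons act mainly at promoter sites known as interferon-stimulated response elements (ISRE), and interferon gamma mainly at gamma-activated sites (GAS). The GTPases of the GBP and IRG families, with Gbp2, Ifi47 and Irgm1 among them, act on vacuoles that hold intracellular pathogens and are best known as interferon gamma targets. Isg15, Ifit1, Ifit3 and Ifitm3 are antiviral effectors, and Irf1 and Irf7 are transcription factors that carry interferon responses further.

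The promoters show which of the genes carry letters of these elements close to their start. Windows from 250 bases before to 50 bases after the start of each gene (RefSeq, GRCm38.p6) were searched on both strands for GAAA followed by any 2 bases and GAAA again, the core of an ISRE, and for TTC and GAA around any 3 bases, a GAS-like pattern. All 9 genes had a window. The ISRE core was found in 6 of them (Isg15, Ifit1, Ifit3, Irgm1, Gbp2 and Ifitm3), and 3.44% of all 32851 windows hold it. The GAS-like pattern was found in Irf1 and Ifitm3, and 8.3% of all windows hold it. Neither pattern was in the windows of Irf7 or Ifi47. A match describes the letters and does not show binding.

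Stretches of 100 bases are shown for 6 genes on which the results below turn, from 5′ to 3′ on the gene's own strand. Capitals mark the ISRE core, read on the opposite strand in Ifit3 and Gbp2, and the GAS-like pattern in Irf1. With the base before the start at -1, the 3 overlapping cores of Isg15 run from -78 to -57, and those of Irgm1 from -30 to -15. The cores of Ifitm3 lie just after its start.
Isg15, chr4:156200836-156200935, minus strand: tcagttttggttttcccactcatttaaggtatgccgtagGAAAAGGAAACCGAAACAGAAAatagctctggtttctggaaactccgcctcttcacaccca
Ifit3, chr19:34583345-34583444, plus strand: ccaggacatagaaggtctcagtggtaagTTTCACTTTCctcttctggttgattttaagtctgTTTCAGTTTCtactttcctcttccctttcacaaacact
Irgm1, chr11:48871421-48871520, minus strand: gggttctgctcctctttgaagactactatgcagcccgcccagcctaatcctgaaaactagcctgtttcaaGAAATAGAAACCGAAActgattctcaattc
Gbp2, chr3:142620559-142620658, plus strand: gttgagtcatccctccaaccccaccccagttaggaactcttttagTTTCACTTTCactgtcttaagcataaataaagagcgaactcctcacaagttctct
Ifitm3, chr7:141010716-141010815, minus strand: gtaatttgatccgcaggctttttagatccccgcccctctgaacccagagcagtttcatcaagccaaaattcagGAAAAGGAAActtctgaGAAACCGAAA
Irf1, chr11:53769878-53769977, plus strand: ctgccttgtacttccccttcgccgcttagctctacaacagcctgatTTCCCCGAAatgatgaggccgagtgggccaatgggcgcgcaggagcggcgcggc

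Signals are MAS5 intensities on a linear scale, and array medians ran from 160.1 to 216.4. Both arrays of 7-day pair 4 had a compressed range, with top signals of 10167 and 10767 against 25718 to 51453 on the other 16. The brightest Aprt probe set was set against the labels. It read 115.5 ± 44.4 in controls and 66.9 ± 34.1 in arrays labelled Aprt KO at 7 days (SD, n = 6), and 107.1 ± 2.88 and 65.5 ± 18.4 at 1 month (SD, n = 3). In 4 arrays (7-day controls 1 and 2, 7-day Aprt KO 4 and 1-month Aprt KO 1) it fell beyond the midpoint of the group medians. The groups overlapped at 7 days. At 1 month they did not, with a highest KO signal of 86.5 and a lowest control signal of 103.9. The dimmer Aprt probe sets showed no loss at 7 days, with means of 34.2 in controls and 39.3 in KO arrays, and of 25.4 and 31.6. Whether any of these probes lie in the altered part of the gene is not known here, so Aprt signal is a weak check of the labels. Directions below are therefore given by label, KO relative to control. Markers of kidney tubule and podocyte summed to 34770 to 100900 per array and all 10 marker genes were above the low-signal filter described below. The array of 7-day control 3 stood apart in the genes described here. For the 9 genes, the 7-day genotype differences, the interaction and the age changes in controls are therefore given both with it and without it. Several of these changed sign or gained a call when it was left out. The other fits share its spread. It was set aside after its values had been seen, so p-values without it are conditional on that choice.

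Of the 10 probe sets, 7 had a mean signal above 119, which is the 40th percentile of all probe sets. Ifit1, Ifi47 and the dimmer Irf7 probe set did not. Ifit1 read at or below 29, the 20th percentile of all values, on 12 of 18 arrays, and Ifi47 on 8. No filter was applied in the tests, so all 10 were tested.

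**Figure D1:**
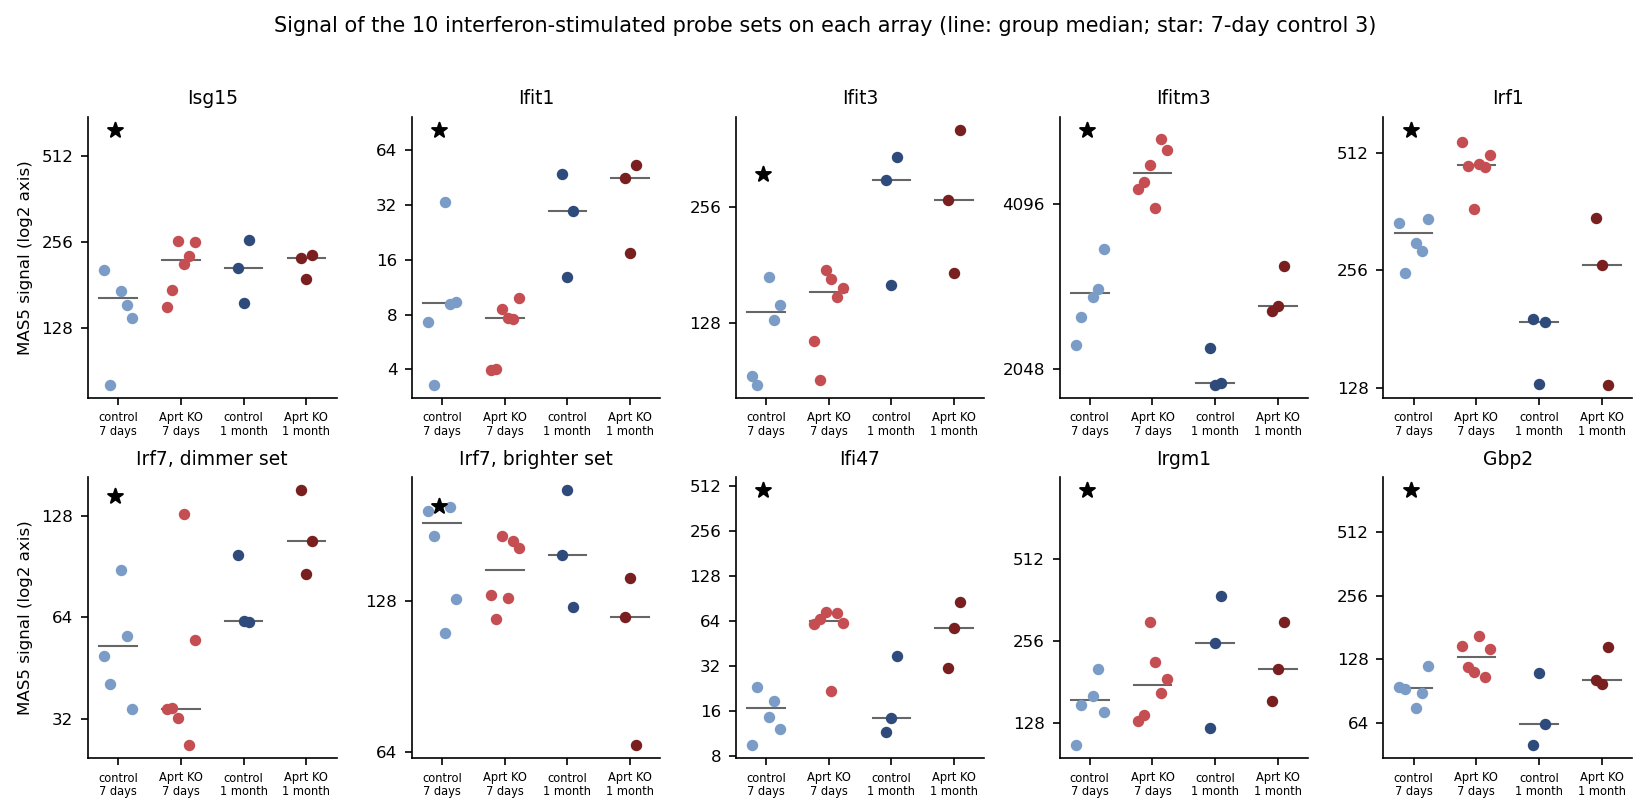
MAS5 signal of each of the 10 probe sets (log2 axis) on each of the 18 arrays, by group; the line is the group median and the star is 7-day control 3. The star is the highest of the 6 points of its group in all 10 panels.

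In 7-day control 3 all 10 probe sets read higher than in every other 7-day control. A probe set was highest in this array in 22.5% of all cases. In 8 of the 10 it stood over 2-fold above the mean of the other 5 controls on the log2(signal + 29) scale, against 1.49% of all probe sets (185 of 12422). The median difference was 1.32 for the 10 probe sets and 0.02 for all. No other 7-day control was more than 2-fold above the other controls in any of the 10.

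The GTPases stood furthest out. Ifi47, an IRG family GTPase, read 485.2 in control 3 and from 9.51 to 23.2 in the other 5 controls (15.7 ± 5.43, SD, n = 5), a log2 difference of 3.53 that was the 6th largest of all 12422. Gbp2, a guanylate-binding protein, read 813.7 against 75.01 to 119.6 (94.1 ± 16.2), a difference of 2.78. Irgm1, an IRG family regulator, read 918.6 against 106.4 to 202.3 (152.0 ± 34.8), a difference of 2.41. In all of these the array lay far outside a tight set of 5 controls, and above all 6 KO arrays of its age.

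The antiviral effectors were raised less. Isg15, a ubiquitin-like protein that is attached to other proteins, read 634.7 against 81.3 to 205.7, a log2 difference of 1.93. Ifit1, which binds viral RNA lacking host cap marks, read 82.9 against 3.29 to 33.3 (1.47), and its partner Ifit3 read 311.6 against 88.5 to 168.1 (1.18). Ifitm3, a membrane protein that blocks virus entry, read 5610 against 2266 to 3386 (1.02). For Ifit1, 4 of the other 5 controls were near the bottom of the scale, so its difference depends on the added 29.

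Of the transcription factors, Irf1 read 585.7 against 251.8 to 346.1 (0.89). Irf7 read 147.2 against 34.1 to 88.8 by the dimmer probe set (1.12) but 197.5 against 110.6 to 196.2 by the brighter one (0.28). The Irf7 probe sets therefore disagreed on this array, and the brighter put it barely above its nearest neighbour.

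Among other genes of the pathway the difference was over 2-fold in most GTPase and chemokine probe sets and in none of the genes upstream. Of 8 other listed probe sets for GTPases of the GBP, IRG and Mx families, 6 were over 2-fold higher in control 3, with a median of 2.90. The list does not hold every gene of these families. Iigp1 led at 6.06 and 5.32 by its probe sets, from 19.9 to 59.4 in the other controls to 4594 by the brighter one. Igtp (3.05), Gbp7 (3.03), Irgm2 (2.77) and Gbp3 (2.70) followed, while Mx1 differed by 0.14 and was dim, reading under 41 in all 6 controls. Of 3 interferon-inducible chemokine probe sets 2 were over 2-fold higher, Cxcl9 (1.57) and Cxcl10 (1.38). Among 39 probe sets of other antiviral and interferon-stimulated effectors 3 were, with a median of 0.34.

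No probe set of the interferons themselves (0 of 11), their receptors and kinases (0 of 10), STAT and IRF factors (0 of 6) or nucleic acid sensors (0 of 6) was over 2-fold higher in control 3. In these lists control 3 was the highest control in 1, 2, 2 and 2 probe sets, against 22.5% of all. Irf9 (0.91, 730.8 against 330.5 to 426.9), Ifih1 (0.72) and the dim Ifna4 (0.94, 70.1 against 13.6 to 36.4) read above all other controls. Ifngr2 (-0.58) read below all of them. These genes were chosen after their values were seen. Ifng, which encodes interferon gamma, read 5.33 in control 3 and from 0.99 to 9.31 in the other controls, all near the bottom of the scale. Of 10 feedback inhibitor probe sets only Usp18, which removes Isg15 from proteins, passed 2-fold (1.18). It was dim too, at 80.0 against 6.12 to 49.4.

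Of the 20 probe sets with the largest difference 3 were of the 9 genes (Ifi47, Gbp2 and Irgm1), 6 were of the other listed GTPases and 2 had no single symbol. The others, which were chosen after their values were seen, included Gbp2b (3.82), a guanylate-binding protein outside the list of other GTPases. The immunoproteasome subunits Psmb9 (3.56) and Psmb8 (3.10), and H2-Aa (3.48), H2-Ab1 (2.63) and H2-DMa (2.60) of MHC class II, were also among them. H2-D1 of MHC class I differed by 2.40, Fabp7, which is not in the interferon pathway lists, by 2.38 and the myeloid marker Aif1 by 2.35. The largest difference of all, 6.48, was that of a probe set with no single symbol.

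Cell type markers moved with these values in part. Myeloid markers summed to 6330 in control 3, the highest of the controls, whose median was 3860, and below the 8000 to 11620 of the 7-day Aprt KO arrays. Of 27 myeloid probe sets 5 were over 2-fold higher in control 3, and Itgam read at or below 29 on every array. Lymphocyte and natural killer cell markers summed to 930.3, the highest of a range from 614.5, with 1 of 21 probe sets over 2-fold higher (Gzmb, 1.09, chosen after its value was seen), and 15 of 17 of these genes were below the signal filter. No endothelial or kidney marker was over 2-fold higher. Of 16 endothelial probe sets 1, of Tie1, was over 2-fold lower (-1.09), and the endothelial sum of 8763 was the lowest of the controls. Kidney markers had a median of -0.26. The part of these cells in the difference was not tested. In whole-kidney RNA more cells of a type and more RNA per cell cannot be told apart.

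The littermate of control 3 lay much closer to its own group. Among the 6 arrays of 7-day Aprt KO kidneys, KO 3 was the highest in 5 of the 10 probe sets, and in 21.9% of all, with a median difference of 0.16 from the other 5 and none over 2-fold. It read 73.8 for Ifi47, 111.8 for Gbp2 and 301.8 for Irgm1.

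**Figure D2:**
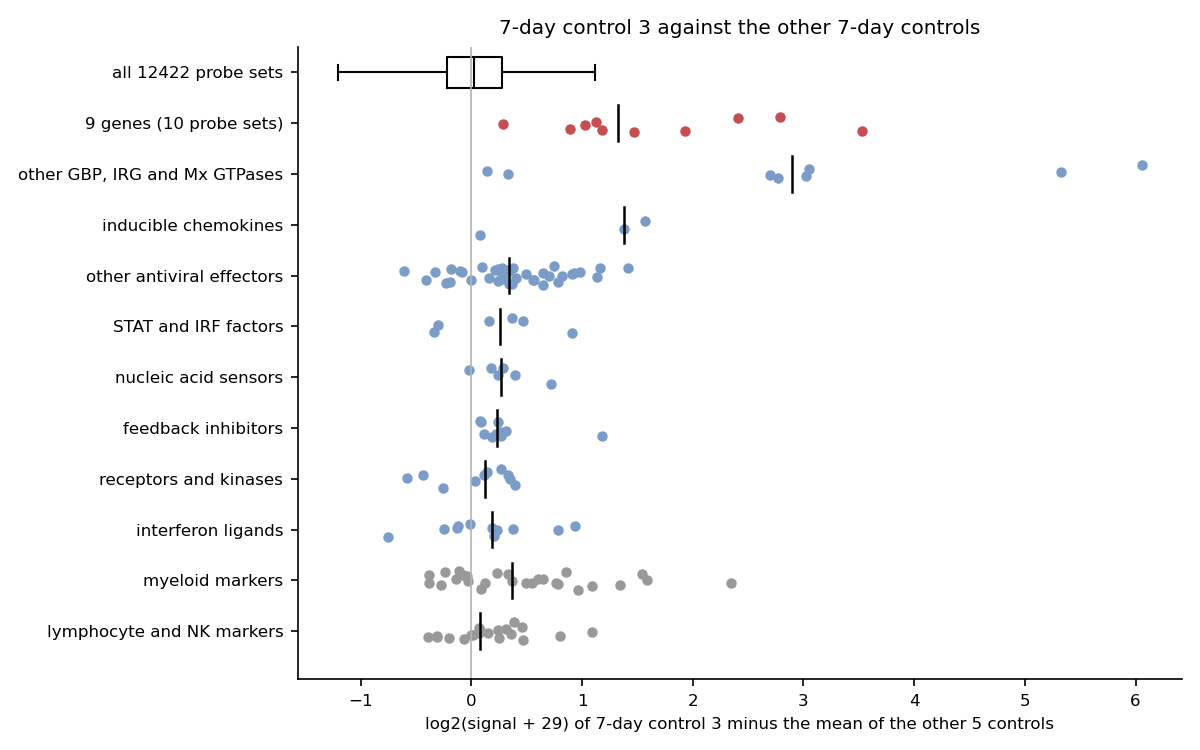
Difference of 7-day control 3 from the mean of the other 5 controls on the log2(signal + 29) scale, by gene list; points are probe sets, vertical ticks are list medians, and the box over all 12422 probe sets has whiskers at the 1st and 99th percentiles. The 9 genes and the other GTPases lie mostly above 1, with medians of 1.32 and 2.90. Ligands, receptors and transcription factors lie below 1, with medians of 0.18, 0.13 and 0.26.

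At 7 days, over all 18 arrays, none of the 10 probe sets passed the limma test of Aprt KO against control (0 of 10 called at an adjusted p under 0.05), against 1.78% of all probe sets (221 of 12422). At an unadjusted p under 0.05 there were 2 of 10, and 997 of all 12422. Their median log2 fold change was -0.06 and that of all probe sets -0.01. Without 7-day control 3, 2 of 10 were called, Ifitm3 and Ifi47, both higher in Aprt KO, against 2.08% of all called (258 of 12422) and 1.76% called higher, and the median log2 fold change of the 10 was 0.32. Leaving out pair 3 called Irf1 too (limma adjusted p 0.0492), against 2.0% of all probe sets, and leaving out any other single array or pair called none of the 10.

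Ifitm3 was the member nearest to a call over all arrays. The 6 controls had a lowest signal of 2266, a median of 2817 and a highest of 5610, and the 6 Aprt KO arrays 4029, 4669 and 5404. The groups overlapped only through control 3, without which every KO array was above every control. The log2 fold change was 0.60 (SE 0.16; limma adjusted p 0.0773) over all arrays and 0.76 (SE 0.11; limma adjusted p 0.000806) without control 3. With the littermate pair as a block it passed over all arrays too (limma adjusted p 0.0195, with 522 of 12422 called, 4.2%), and KO was higher in 5 of 6 pairs, by 0.54 to 0.94, pair 3 being the exception at -0.21.

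Ifi47 was high in controls only in array 3. The controls read 9.51 at the lowest, 16.8 at the median and 485.2 at the highest, and the KO arrays 21.9, 64.6 and 73.8. Among KO arrays 5 lay between 61.3 and 73.8, above every control but control 3, and KO 4, of the pair with the compressed range, lay among the controls. The log2 fold change was 0.37 (SE 0.43; limma adjusted p 0.999) over all arrays and 0.93 (SE 0.17; limma adjusted p 0.00563) without control 3, or 1.09 (SE 0.16; limma adjusted p 0.00115) without pair 4 as well, where 1.96% of all probe sets were called. Without pair 3 and with the pair as a block the limma adjusted p was 0.00789, and 4.39% of all were called.

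Irf1 had controls of 251.8, 318.7 and 585.7 (lowest, median and highest) and KO arrays of 367.8, 475.7 and 543.9. KO 3 was the lowest KO array and control 3 the highest control, and without control 3 the groups did not overlap. KO was higher by 0.51 to 0.84 in 5 of 6 pairs and lower by 0.63 in pair 3. The log2 fold change was 0.44 (SE 0.19; limma adjusted p 0.509) over all arrays and 0.61 (SE 0.15; limma adjusted p 0.0538) without control 3, short of the threshold. With the litter as a random block and without control 3 it was called (limma adjusted p 0.0133). Irf1 and Ifitm3 were the 2 of 10 whose groups did not overlap without control 3, KO being higher; 2.29% of all probe sets did so.

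Gbp2 and Isg15 read somewhat higher in most KO arrays and were not called. Gbp2 controls read 75.0, 93.8 and 813.7 and KO arrays 105.9, 130.8 and 164.9 (lowest, median and highest), and KO was higher in 5 of 6 pairs. Its log2 fold change was -0.08 (SE 0.39) over all arrays and 0.41 (SE 0.17; limma adjusted p 0.398) without control 3. Isg15 controls read 81.3, 163.3 and 634.7 and KO arrays 152.2, 222.7 and 259.4, with log2 fold changes of 0.14 (SE 0.31) and 0.48 (SE 0.20; limma adjusted p 0.399). For Isg15 KO was higher in 4 of 6 pairs. Control 3 turned the sign of Gbp2 and the groups of both genes overlapped without it.

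The other genes were not called either. Ifit3 and Irgm1 had slightly higher medians in KO arrays, KO was higher in 4 and 3 of 6 pairs, and control 3 turned the sign of both. Ifit1 and Irf7 did not read higher in KO arrays. Ifit3 read 88.5, 136.4 and 311.6 in controls and 91.0, 153.7 and 175.7 in KO arrays, with log2 fold changes of -0.03 (SE 0.27) over all arrays and 0.18 (SE 0.24) without control 3. Irgm1 read 106.4, 155.4 and 918.6 against 130.6, 176.1 and 301.8, with -0.15 (SE 0.34) and 0.23 (SE 0.20). Ifit1 was dim in both groups, at a median of 9.28 in controls and 7.64 in KO arrays, with -0.41 (SE 0.25) and -0.15 (SE 0.17). For Irf7 the dimmer probe set gave -0.29 (SE 0.27) and -0.06 (SE 0.23), and the brighter -0.14 (SE 0.18) and -0.11 (SE 0.20). The lowest limma adjusted p among these was 0.836, for Ifit1 over all arrays, and with these errors the groups are not shown to be alike.

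**Figure D3:**
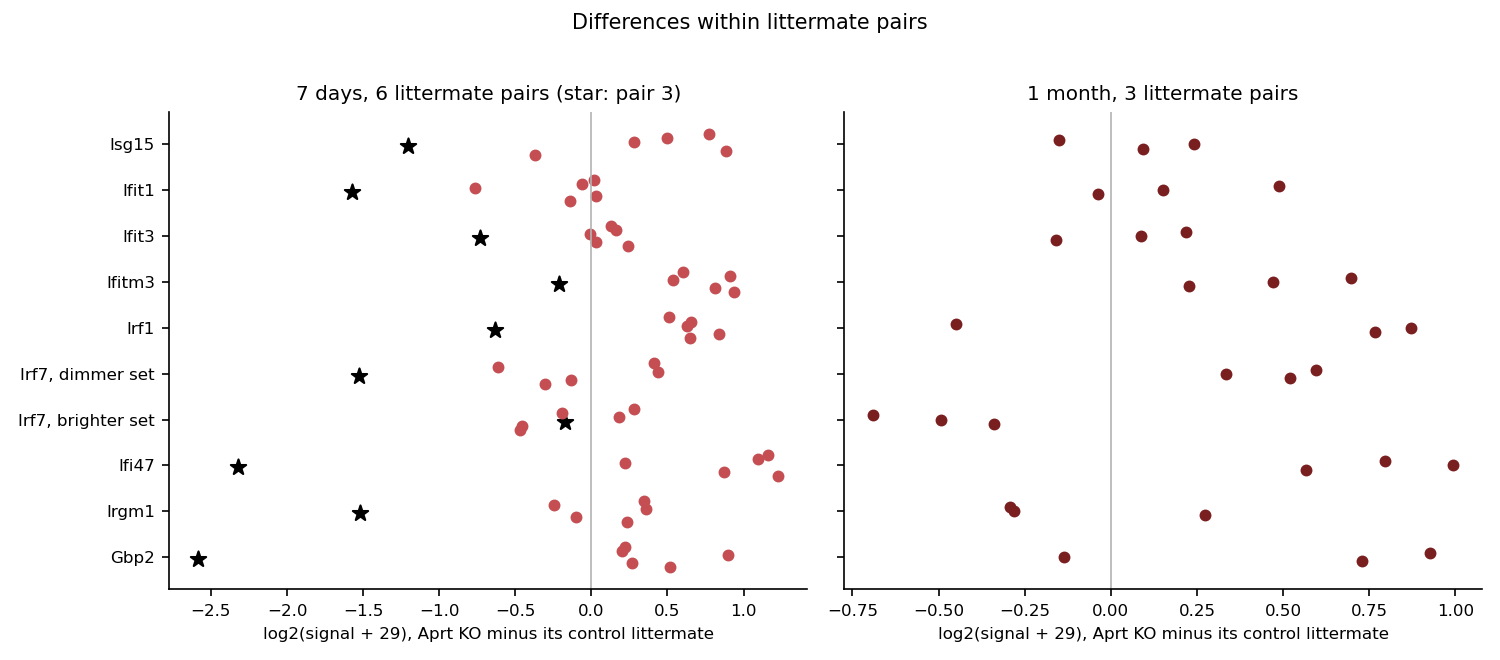
Aprt KO minus its control littermate on the log2(signal + 29) scale for each of the 10 probe sets, in the 6 pairs of 7 days (left; the star is pair 3) and the 3 pairs of 1 month (right). At 7 days Ifitm3, Irf1, Ifi47 and Gbp2 were higher in the KO mouse in 5 of 6 pairs, and pair 3 was the exception in each.

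Other genes of the pathway were mostly not called at 7 days. Over all arrays none of the ligand, receptor, STAT and IRF, sensor, GTPase, effector or chemokine probe sets passed. Of 10 feedback inhibitor probe sets 3 rose, and 188 of all 12422 did. Both Socs3 probe sets, for an inhibitor of JAK signalling that many cytokines induce, rose by 1.78 and 3.26 (limma adjusted p 1.86e-06 and 5.02e-09), from 39.8 ± 26.3 in controls to 603.3 ± 74.4 in KO arrays by the second (SD, n = 6). The phosphatase Ptpn1 rose by 0.56 (limma adjusted p 0.0103). Without control 3 the GTPase Gbp3 (0.73, limma adjusted p 0.00554), the schlafen gene Slfn2 (1.21, limma adjusted p 0.0044) and the chemokine Cxcl10 (0.73, limma adjusted p 0.0441) rose as well. All 10 probe sets of receptors and kinases read higher in KO arrays over all arrays, with a median of 0.12 and none called. Of all probe sets 47.4% read higher, with a median of -0.01.

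Myeloid markers differed between the same groups. They summed to 3762 to 6330 in 7-day controls and 8000 to 11620 in Aprt KO arrays, without overlap. Of 27 probe sets 12 rose over all arrays and 17 without control 3, against 188 and 219 of all 12422. Lymphocyte and natural killer cell markers summed to 614.5 to 930.3 and 795.8 to 1183, and 0 of 21 were called. Kidney markers read lower in Aprt KO in 9 of 11 probe sets over all arrays (median -0.28, none called) and in 10 of 11 without control 3, where Slc12a3, the thiazide-sensitive transporter, was called (limma adjusted p 0.0433). Endothelial markers read lower in 12 of 16, with none called. Of all 12422 probe sets 6529 read lower over all arrays and 6333 without control 3. The part of these cells in the rises of Ifitm3 and Ifi47 was not tested.

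At 1 month none of the 10 probe sets was called by limma, against 0.0644% of all probe sets (8 of 12422). In Aprt KO 8 of the 10 read higher, against 48.6% of all, with a median of 0.30 against -0.01 for all. At an unadjusted p under 0.05 there were 0 of 10 over all arrays, and 485 of all 12422 probe sets. There were 3 of 10 without 7-day control 3 and 2 with the littermate pair as a block. The unadjusted share of all probe sets in those 2 fits is not given here, so these counts are a description only. Ifitm3 read 2232, 1914 and 1933 in controls 1 to 3 and 2617, 2665 and 3153 in KO 1 to 3. It was the 1 probe set of the 10 whose KO arrays all lay above all controls, as 3.75% of all probe sets did, with a log2 fold change of 0.47 (SE 0.23; limma adjusted p 1.0). KO was higher in 3 of 3 pairs, by 0.23 to 0.70.

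Ifi47 read 11.7, 14.4 and 37.5 in controls and 31.2, 57.4 and 86.4 in KO arrays. Each KO mouse read above its own littermate, by 0.57 to 0.99, though KO 1 lay below control 3 of that age. The log2 fold change was 0.79 with an SE of 0.61, and the SE was 0.23 when 7-day control 3, which widens the spread shared by all groups, was left out (limma adjusted p 0.422). Gbp2 read 50.2, 110.5 and 62.9 against 102.2, 98.0 and 145.8 (0.51, SE 0.55), and Irf1 192.7, 131.4 and 188.7 against 348.4, 264.7 and 130.4 (0.40, SE 0.27). In Gbp2 pair 2 and in Irf1 pair 3 went the other way.

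The probe sets of Irf7 went opposite ways at 1 month. By the dimmer one the KO mouse was higher in 3 of 3 pairs, by 0.33 to 0.60, with controls at 98.3, 62.7 and 62.0 and KO arrays at 153.5, 86.5 and 108.5. By the brighter one it was lower in 3 of 3 pairs, with controls at 158.0, 212.3 and 124.6 and KO arrays at 119.0, 142.3 and 66.2. The fitted differences were 0.48 (SE 0.38) and -0.51 (SE 0.26), neither called, and no direction is given for Irf7.

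In Ifit3, Irgm1, Ifit1 and Isg15 the fitted differences at 1 month were 0.05 (SE 0.38), -0.10 (SE 0.47), 0.20 (SE 0.35) and 0.06 (SE 0.43). Littermates resembled each other in Ifit3, where the pairs read 300.8 and 266.5, 160.4 and 172.1, and 344.8 and 405.6 (control, then KO). In Irgm1 they read 122.5 and 154.2, 253.1 and 203.3, and 376.3 and 301.8. For both genes the pairs differed from each other by more than the genotypes within a pair. No probe set of the other interferon pathway lists was called at 1 month. Myeloid markers summed to 3409 to 4473 in controls and 4396 to 5541 in KO arrays, with 0 of 27 called.

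The interaction test, which asks whether the genotype difference changed with age, was passed by none of the 10 probe sets (0 of 10 called by limma), against 0.274% of all (34 of 12422). At an unadjusted p under 0.05 there were 0 of 10, and 593 of all 12422. The largest estimate was that of Irf7 by its dimmer probe set, at 0.77 (SE 0.47), or 0.54 (SE 0.38) without 7-day control 3. For Ifitm3, Irf1 and Ifi47 the estimates were -0.13 (SE 0.28), -0.04 (SE 0.33) and 0.41 (SE 0.75) over all arrays. Without 7-day control 3 they were -0.30 (SE 0.19), -0.22 (SE 0.26) and -0.14 (SE 0.29), so that this array turned the sign for Ifi47. In Socs3 the same test was passed by both probe sets (-3.31, limma adjusted p 3.26e-05, and -1.56, limma adjusted p 0.0163).

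**Figure D4:**
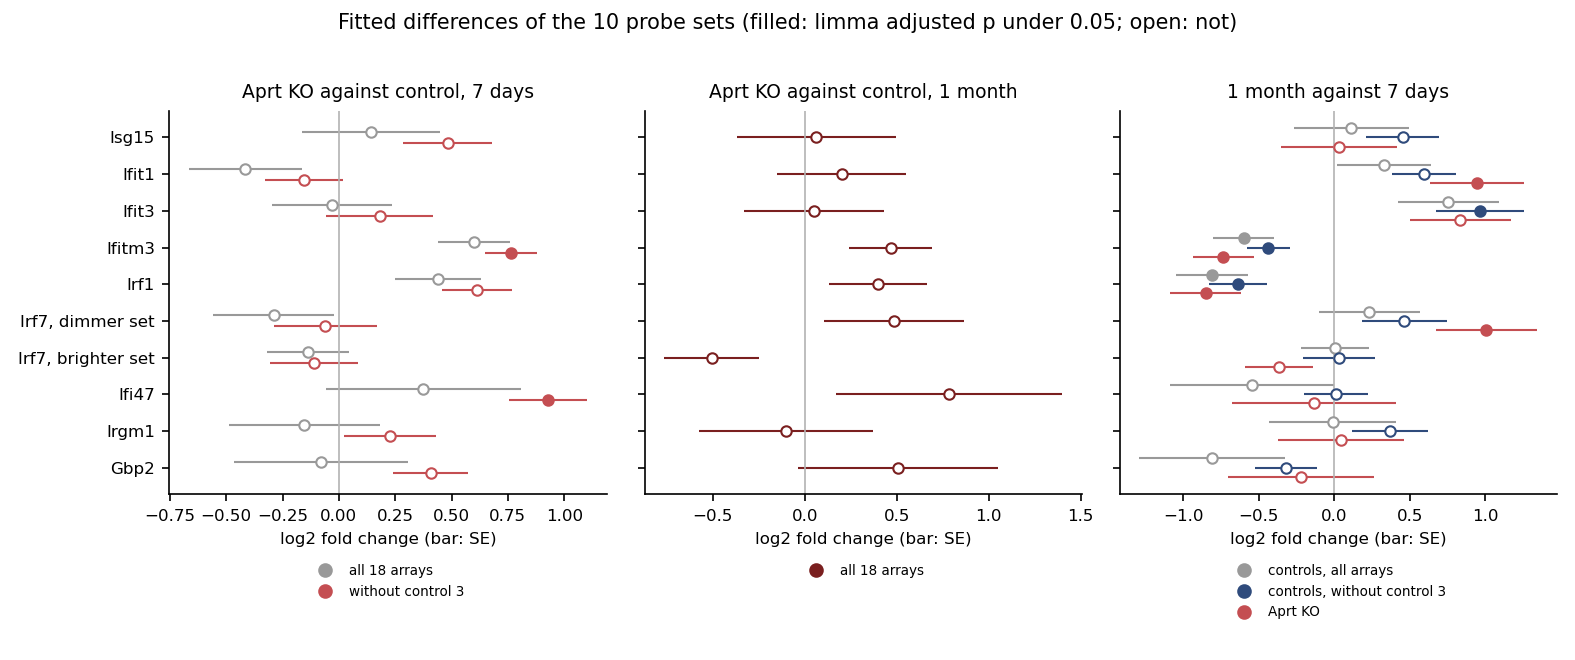
Fitted log2 fold changes with SE for the 10 probe sets: Aprt KO against control at 7 days (left), at 1 month (middle), and 1 month against 7 days (right); filled points have a limma adjusted p under 0.05. At 7 days the filled points are Ifitm3 and Ifi47 without control 3, and in the right panel Irf1 and Ifitm3 lie below 0 in controls and in Aprt KO.

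Between 7 days and 1 month Irf1 and Ifitm3 fell in both genotypes. In controls 2 of 10 were called, both lower, against 23.7% of all probe sets called, 8.12% higher and 15.6% lower. In Aprt KO 4 of 10 were called, 2 higher and 2 lower, against 23.7% of all, 8.32% higher and 15.4% lower. Without 7-day control 3, 3 of 10 were called in controls, Irf1 and Ifitm3 lower and Ifit3 higher, against 22.7% of all, and 5 of 10 in Aprt KO, against 24.0%. The mice of different ages came from different litters. Markers changed with age as well: kidney markers rose in 7 of 11 probe sets in controls and 8 of 11 in Aprt KO, endothelial markers fell in 9 and 6 of 16, and myeloid markers fell in 1 and 8 of 27 and rose in 2 and 0. Their part in the changes below was not tested.

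Irf1 fell from 351.4 ± 119.8 in 7-day controls (SD, n = 6; 304.6 ± 38.4 without control 3) to 170.9 ± 34.3 at 1 month (SD, n = 3). Its fitted difference was -0.81 on the log2 scale (SE 0.24; limma adjusted p 0.0185). All 3 arrays of 1 month were below all 6 of 7 days. How many of all probe sets separated the ages in this way was not counted, so the separation is a description only. In Aprt KO it fell from 473.2 ± 58.7 to 247.8 ± 110, by 0.85 (SE 0.24; limma adjusted p 0.0132), with no overlap either. The order of the group means was 7-day KO, 7-day control, 1-month KO and 1-month control, and neither genotype step in that order was called.

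Ifitm3 fell from 3241 ± 1219 to 2026 ± 178.5 in controls, by 0.60 (SE 0.20; limma adjusted p 0.0368), and from 4716 ± 512.7 to 2812 ± 296.6 in Aprt KO, by 0.73 (SE 0.20; limma adjusted p 0.0117). The 3 controls of 1 month were below all 6 of 7 days, as were the 3 KO arrays. The share of all probe sets that did so was not counted. Without control 3 the falls in controls were 0.43 for Ifitm3 (limma adjusted p 0.0332) and 0.63 for Irf1 (limma adjusted p 0.0227). These calls depended on how the arrays were scaled. Setting the array medians equal moved the median of all probe sets in controls from -0.08 to 0.08 and the lower share of all calls from 65.8% to 38.9%. Under it the falls in controls were 0.35 for Ifitm3 and 0.58 for Irf1 and neither was called, in controls (limma adjusted p 0.261 and 0.0874) or in Aprt KO (0.12 and 0.074). Ifit3 was called higher under it in both genotypes (limma adjusted p 0.0416 and 0.0271), so that the calls among the 10 were 1 higher and 0 lower in controls, and 3 higher and 0 lower in Aprt KO. Under quantile normalization Ifitm3 was called in both genotypes and Irf1 in neither, and with the litter as a random block neither was called in controls (limma adjusted p 0.0547 and 0.0554).

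The Ifit genes read higher at 1 month. Ifit3 went from 155.7 ± 82.1 to 268.7 ± 96.3 in controls (0.76, SE 0.34; limma adjusted p 0.123), and rose by 0.97 without control 3 (SE 0.29; limma adjusted p 0.0236). In Aprt KO it went from 142.7 ± 32.8 to 281.4 ± 117.4 (0.83, SE 0.34; limma adjusted p 0.0853, and 0.0402 without 7-day control 3). Ifit1 rose in Aprt KO from a highest signal of 9.87 at 7 days to 17.4, 45.1 and 53.2 at 1 month (0.94, SE 0.31; limma adjusted p 0.0344). All 6 KO arrays of 7 days read below all 3 of 1 month, a separation whose share over all probe sets was not counted. In controls the change of Ifit1 was 0.33 (SE 0.31; limma adjusted p 0.535) over all arrays and 0.59 (limma adjusted p 0.0564) without 7-day control 3. Without that array it was called under quantile normalization and median scaling (limma adjusted p 0.0291 and 0.0258). The interaction test of Ifit1, 0.61 (SE 0.43) over all arrays and 0.35 (SE 0.29) without 7-day control 3, was not passed. Its low signals make these values depend on the added 29: with the added value at the 40th percentile the change in Aprt KO was 0.36 and not called.

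Irf7 rose in Aprt KO by its dimmer probe set, from 52.1 ± 39.6 to 116.2 ± 34.1 (1.01, SE 0.34; limma adjusted p 0.0373). The call was lost with the litter as a random block (limma adjusted p 0.0575) and without the sex term (0.0514), and it held in 18 of 36 alternatives. The brighter probe set was not called and read 146.9 ± 23.3 and 109.2 ± 39.0 (-0.37, SE 0.23; limma adjusted p 0.294). Gbp2, Ifi47, Irgm1 and Isg15 were called in neither genotype. In controls Gbp2 read 214.1 ± 294.1 at 7 days and 74.5 ± 31.8 at 1 month, and 94.1 ± 16.2 at 7 days without control 3, so that its change of -0.81 was -0.32 without that array.

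Some upstream genes were called with age, in controls where 23.7% of all probe sets were. Ifnar1, a chain of the type I interferon receptor, fell by 0.86 in controls and in Aprt KO alike (limma adjusted p 0.000213 and 0.000214), and Ifngr2, of the interferon gamma receptor, by 0.72 and 0.95 (0.0266 and 0.00454). Socs1, which inhibits JAK kinases downstream of interferon receptors, fell from 178.0 ± 34.4 to 24.7 ± 7.36 in controls (-1.93) and from 175.6 ± 35.9 to a range of 27.3 to 42.3 in Aprt KO (-1.70). In controls 2 of 10 receptor and kinase probe sets fell and 1 rose, and of 39 effector probe sets 4 fell and 1 rose, against 15.6% of all lower and 8.12% higher, among them Lgals9 (-0.95) and the Isg15-activating enzyme Uba7 (-0.87). Without control 3 the GTPases Gbp3 (0.68) and Iigp1 (1.05 by its brighter probe set) rose with age in controls (limma adjusted p 0.00598 and 0.0324).

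The genes most like each of the 9 across arrays, by Pearson r of log2 values centred by age, depended in part on control 3. Over 18 arrays Ifi47 was most like Psmb8 (r = 0.94), Gbp2 like Iigp1 (0.91), Isg15 like H2-D1 (0.92), Irf1 like H2-DMb1 (0.80) and Ifitm3 like H2-Aa (0.90). Irgm1 was most like Smndc1 (0.90), Ifit3 like Smim11 (0.88) and Ifit1 like Rab26os (0.81), which are not in the interferon pathway lists. Over the 17 arrays without control 3 Ifi47 was most like the galectin Lgals3 (0.93) and Irgm1 like the metalloprotease Adam9 (0.94). Ifitm3 was then most like Tpm1 (0.94), Gbp2 like Sfn (0.81), Ifit3 like Snrpg (0.89) and Ifit1 like Wwc1 (0.85). Irf1 was still most like H2-DMb1 (0.84) and Isg15 like H2-D1 (0.79). The brighter Irf7 probe set was most like Ighd both with control 3 (0.87) and without it (0.86). These are descriptions over arrays that share litters and genotype groups.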

How the data were processed

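The authors deposited MAS5 signals, an intensity on a linear scale, for 12488 probe sets on 18 arrays, for which the submitters' processing notes name GCOS and MAS5; software versions and the target of the scaling were not given in the sources used here. The trimmed mean was close to 500 on every array (500.2 to 500.4), and no further scaling was applied. After 66 control probe sets were removed, 12422 were tested; 10833 had 1 gene symbol in the platform annotation, 396 several and 1193 none. From the deposited intensity, log2(signal + 29) was computed, 29 being the rounded 20th percentile of all values, so fold changes of dim probe sets are understated. A limma 3.58.1 model (R 4.3.3, lmFit, eBayes with trend) had 1 term per group and 1 sex term per age over all arrays, with 12 residual degrees of freedom. Tests were two-sided with Benjamini-Hochberg adjustment over 12422 probe sets, and a call was an adjusted p under 0.05; the code was tested on simulated data.

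The number of arrays, 3 to 6 a group, limits the precision. Pairs come from the labels, which name each mouse's littermate, and the arrays of a pair deviated together from their groups (r of 0.158 to 0.552 in 9 pairs). Promoter sequences and their build are from RefSeq (GRCm38.p6). The 9 genes, the pathway and marker lists and the alternatives were chosen with earlier results of these data known. Outside the 9, genes were named where called in a list (up to 6 by smallest p), or as the smallest p of a list; others were chosen after their values were seen, Mx1, Cxcl9, Usp18, Ifng and the GTPases named for control 3 among them. Alternatives were another pseudocount, filter, scaling, block or sex term, 1 naming series or age alone, and each array or pair left out. Removing arrays by their Aprt signal, and further alternatives without control 3, were added after seeing the data. Figures were drawn with matplotlib 3.10.9.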

Additional observations from a re-analysis of the deposited data

Results flagged for a closer look

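Of 20 groups of 6 arrays tested for a value far from the others by Dixon's criterion, 6 held one, where chance gives about 1 in 20. In 4 of the 6 the array was 7-day control 3, which read 586 for Irf1, 485 for Ifi47, 919 for Irgm1 and 814 for Gbp2, each the highest of its group. Its Aprt KO littermate, KO 3, read 368 for Irf1, the lowest of its group. Both Irf1 values were borderline, with a gap over range of 0.63 in control 3 and 0.625 in KO 3 against a critical value of 0.625. Aprt KO 4, of the pair with the compressed signal range, read 21.9 for Ifi47, also the lowest of its group. The cause of these values was not tested.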

How the results depend on the processing

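Of 1480 values of single probe sets under an alternative, 1347 kept their direction and their side of the threshold, 69 lost a call, 30 gained one and 34 changed sign, none of the last with a call. At 7 days the count of all probe sets called, 221, was 522 with the litter pair as a block (4.2%), 491 with it as a random block, 85 in M-named and 48 in OA-named mice alone, and 122 without the 4 arrays on the other side of the Aprt midpoint. Of the 10 probe sets 1 was called, Ifitm3, with the block, the random block, quantile normalization or the brightest probe set per gene. The block changed no other call of the 9 genes in a genotype comparison over all arrays; age cannot be fitted with a fixed block.

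At 1 month the count, 8, was 58 with the block, 92 with the random block, 23 with a pseudocount of 1, 0 at the 40th percentile, 15 with the filter, 18 with the brightest probe set per gene, 5 with median scaling, 14 with the naming series and 1 with each age alone. The interaction count, 34, was 89 and 88 with the blocks and 9 without the Aprt midpoint arrays. Of the 10 in controls with age, 1 was called under quantile normalization, 1 under median scaling and 0 with the random block. In Aprt KO with age the count of all, 2949, was 1331 without the Aprt midpoint arrays, with 0 of the 10 called, and 2 were called with the filter, which drops Ifit1 and the dimmer Irf7 probe set. Without control 3 the 7-day count, 258, was 545 and 559 with the blocks and 116 without the Aprt midpoint arrays, which left 1 of the 10 called with age in controls. The cause of these shifts was not tested.

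Uncalled 7-day values changed sign: Isg15 to -0.10 and Ifi47 to -0.002 in M-named mice, Isg15 to -0.13 without the Aprt midpoint arrays, and Ifit3 to 0.14, the brighter Irf7 probe set to 0.043, Irgm1 to 0.05 and Gbp2 to 0.21 in OA-named mice, which leave out control 3. Without control 3 and those Aprt arrays Ifit3 was -0.077 and Irgm1 -0.003.

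With 1 array or pair left out the 7-day count ran from 145 to 258 with 0 to 3 of the 10 called, the 1-month count from 0 to 17, the interaction from 13 to 43, age in controls from 1591 to 3005 with 0 to 3 called (2 to 5 without control 3) and age in Aprt KO from 1553 to 3010 with 1 to 5. Log2 fold changes ran at 7 days from -0.094 to 0.48 for Isg15, -0.16 to 0.18 for Ifit3, -0.31 to 0.23 for Irgm1 and -0.28 to 0.42 for Gbp2, and for the dimmer Irf7 probe set without control 3 from -0.28 to 0.055. At 1 month they ran from -0.12 to 0.25 for Isg15, -0.07 to 0.40 for Ifit1, -0.30 to 0.34 for Ifit3 and -0.29 to 0.10 for Irgm1, and with age in controls from -0.011 to 0.46 for the dimmer Irf7 probe set. Without control 3 Ifitm3 stayed called in 21 of 21 alternatives, Ifi47 in 19 of 19, and Irf1, not called there, gained a call in 5 of 21.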
